A study of Mus musculus with 12 samples.

Results

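Rab genes make up the largest family of Ras-like small GTPases in the mouse, and 54 of them were measured here in dendritic cells (DCs) of the small intestine. The members were chosen by name: every protein-coding gene whose symbol is Rab followed by a number and, where present, a letter, and that reached 5 counts in 1 sample or more of the 12. The annotation held 59 such symbols. Rab17, Rab33a, Rab3c, Rab42 and Rab9b stayed under the count minimum, with at most 3 counts in any sample, and were not tested. In all, 20580 genes were tested.

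Each Rab protein cycles between a GDP-bound form held in the cytosol and a GTP-bound form on the membrane of a particular organelle, where it recruits effectors that move, tether or fuse vesicles. Guanine nucleotide exchange factors (GEFs) load GTP, GTPase-activating proteins (GAPs) end the active state, and prenylation enzymes and GDP dissociation inhibitors control membrane attachment. In DCs these steps carry antigen through phagosomes, endosomes and lysosomes and bring MHC molecules and secretory cargo to the surface.

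CD103+CD11b- and CD103-CD11b+ DCs were sorted from mice labelled wild type (WT) and from mice labelled cKO for Cbfb (Cbfb-cKO), with 3 samples in each of the 4 groups, all of a mixed strain background. Cbfb encodes the partner that Runx transcription factors need to bind DNA firmly, and the study deleted it with Cre under the CD11c promoter, which is active in DCs and in other CD11c-expressing cells. The labels of the WT libraries do not say whether those mice carried Cre, and no label gives the age of the mice. The study drew the replicates from different mice, without saying which libraries came from the same mouse.

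Between 2161929 and 5863484 reads per library were counted on genes, so 3 counts correspond to between 0.485 and 1.53 CPM (counts scaled to a common library size), a limit that covers counting error only. Xcr1, a receptor that marks cDC1, lay between 384 and 680.1 CPM in the 6 CD103+CD11b- libraries and between 4.0 and 73.9 CPM in the 6 CD103-CD11b+ libraries. Itgam, which encodes CD11b, lay between 3.66 and 11 CPM in the former and between 77.9 and 222 CPM in the latter. Cbfb, counted over all its exons, gave log2 fold changes of 0.17 and 0.14 in Cbfb-cKO against WT CD103+CD11b- and CD103-CD11b+ DCs and was not called, so it gave no check of the cKO label. Fewer cells of a type and less RNA per cell cannot be told apart in such bulk samples.

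The family took between 0.273% and 0.435% of the counts on genes in a library. Its share was 0.372% ± 0.00177 (SD, n = 3) in WT and 0.411% ± 0.0208 in Cbfb-cKO CD103+CD11b- DCs. In CD103-CD11b+ DCs it was 0.275% ± 0.00173 in WT and 0.302% ± 0.0117 in Cbfb-cKO samples. Every CD103+CD11b- library lay above every CD103-CD11b+ library. The share weighs abundant genes such as Rab7b most. Over the 52 members with a count in every group, the median log2 fold change between the subsets was 0.12 in WT and -0.09 in Cbfb-cKO. Positive values mean higher in CD103-CD11b+ DCs. It was 0.07 and 0.11 over all tested genes. In WT 30 of the 52 were higher and 22 lower there, and in Cbfb-cKO 20 and 32. Just 9 members, led by Rab8b, Rab14, Rab10, Rab7b and Rab7, held more counts than all the rest together. A count was present in all 12 libraries for 47 members, and 41 had 5 or more counts in every library. The other members passed the count minimum through the libraries in which they were high, which by itself favours a difference among groups.

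By their known sites of action, 12 members belonged to the endoplasmic reticulum (ER) and Golgi, 18 to early and recycling endosomes, 12 to late endosomes and lysosomes, 8 to regulated secretion and 4 to cilia or other sites. Late endosomal and lysosomal members took 22.9% ± 0.327 of the family's counts in WT CD103+CD11b- DCs and 14.7% ± 1.37 in WT CD103-CD11b+ DCs. The same share was 25.1% ± 0.316 and 17.3% ± 3.19 in the Cbfb-cKO samples. These sums weigh abundant genes such as Rab7b and Rab32 most, and the median log2 fold change of the 12 members, CD103-CD11b+ against CD103+CD11b-, was 0.24 in WT and -0.05 in Cbfb-cKO. Members of regulated secretion took 2.06% ± 0.097 and 4.85% ± 0.954 in WT CD103+CD11b- and CD103-CD11b+ DCs, against 1.52% ± 0.216 and 3.18% ± 0.669 in Cbfb-cKO. Members of early and recycling endosomes took between 49.1% and 50.6% in the 6 CD103+CD11b- libraries and between 51.8% and 55.5% in the 6 CD103-CD11b+ libraries, so the subsets did not overlap.

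Levels between genes were compared per kilobase of annotated exon. On that scale the most abundant member over the 12 libraries was Rab7, which drives the fusion of late endosomes with lysosomes, at 72.0 CPM per kilobase. It was followed by Rab8b, a regulator of exocytic and recycling transport, at 71.5, by Rab10, which acts in recycling and exocytosis, at 62.5, by Rab32, which acts on lysosome-related organelles, at 58.7, and by Rab1b, which acts between ER and Golgi, at 52.5. Their group means ran from 60.2 ± 6.80 to 86.2 ± 11.3 (SD, n = 3) for Rab7 and from 46.1 ± 4.44 to 95.5 ± 11.6 for Rab8b. Rab7 and Rab8b, and likewise Rab10 and Rab32, did not differ beyond the spread of their group means. With the longest transcript as the length, the same 4 members led, with Rab32 before Rab10.

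**Figure D1:**
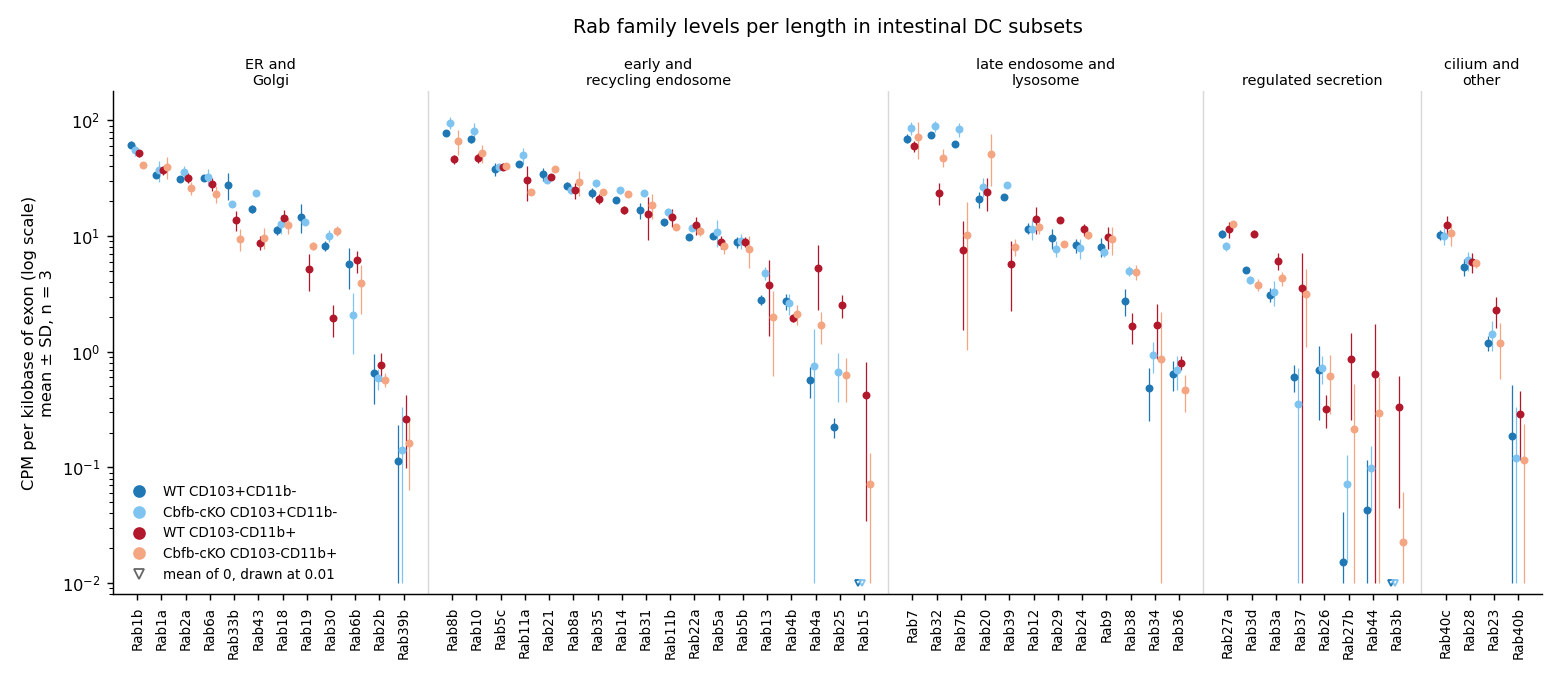
Level of the 54 Rab members in CPM per kilobase of exon on a log scale, grouped by known site of action and ordered within a site by mean level; points are group means and bars SD over 3 samples. Rab7b, Rab32, Rab39 and Rab30 show wide gaps between groups, while Rab5c stays between 38.1 and 40.6 in every group.

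The 5 members with the highest level per length were present in every library. Rab7 was at 199, 179 and 167 CPM in the WT CD103+CD11b- samples, at 197, 221 and 256 in the Cbfb-cKO CD103+CD11b- samples, at 137, 167 and 168 in the WT CD103-CD11b+ samples and at 141, 157 and 264 in the Cbfb-cKO CD103-CD11b+ samples. Its groups overlapped, and it was called in no comparison. Rab1b read 149, 141 and 129 CPM in WT and 123, 113 and 140.4 CPM in Cbfb-cKO CD103+CD11b- DCs, against 128, 114 and 112 CPM in WT and 95.6, 89.2 and 94.3 CPM in Cbfb-cKO CD103-CD11b+ DCs.

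What loss of Cbfb changes in CD103-CD11b+ DCs was asked first. Rab30, Rab32 and Rab14 were higher and Rab3d was lower in Cbfb-cKO than in WT. A gene was called at a false discovery rate (FDR, the Benjamini-Hochberg adjusted p of edgeR's quasi-likelihood test over all tested genes) under 0.05 and a fold change over 1.3. So 4 of 54 members were called, where 1.61% of all tested genes were. The 3 calls upward stand beside 1.11% of all genes and the 1 downward beside 0.5%. In a fit limited to the 11765 genes that reached 5 counts in all 12 libraries, 5 of 41 members were called, with Rab38 in addition, beside 4.87% of those genes. With only the 6 samples of this comparison in the fit, Rab30 alone was called. The median log2 fold change was -0.16 over the 52 members with a count in every group, and -0.06 over all tested genes.

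Rab30 resides at the Golgi. It was at 25.1, 17.7 and 13.4 CPM in the WT CD103-CD11b+ samples and at 112, 113 and 94.3 CPM in the Cbfb-cKO samples, whereas the CD103+CD11b- samples read 70.4, 84.2 and 82.6 CPM in WT and 85.9, 97.1 and 109.5 CPM in Cbfb-cKO. The WT CD103-CD11b+ group was the low one, and its 3 samples did not overlap with any other group. The log2 fold change in CD103-CD11b+ DCs was 2.50 (SE 0.21, edgeR FDR = 0.00057), or 5.65-fold. The gene lies on chromosome 7 of GRCm38 from 92741603 to 92844535 on the plus strand.

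Rab32, which takes part in the formation of lysosome-related organelles, was at 64.0, 41.6 and 61.1 CPM in WT and at 94.7, 107 and 134 CPM in Cbfb-cKO CD103-CD11b+ DCs. Each cKO sample lay above each WT sample, and the log2 fold change was 1.0 (SE 0.17, edgeR FDR = 0.0194). All of these values stayed under the CD103+CD11b- samples, which read 182, 172 and 171 CPM in WT and 197, 193 and 233 CPM in Cbfb-cKO. Without WT CD103-CD11b+ replicate 2 or 3, or Cbfb-cKO CD103-CD11b+ replicate 2, its FDR rose over 0.05, to at most 0.0575. Rab32 lies on chromosome 10 from 10545002 to 10558265 on the minus strand.

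Rab14 acts between the Golgi and early endosomes and slows the maturation of phagosomes. Its WT CD103-CD11b+ samples were at 209, 229 and 245 CPM and the Cbfb-cKO samples at 306, 327 and 317 CPM. These groups did not overlap, with a log2 fold change of 0.48 (SE 0.09, edgeR FDR = 0.0311), the smallest of the 4 called changes. The CD103+CD11b- samples read 279, 283 and 279 CPM in WT and 314, 348 and 351 CPM in Cbfb-cKO. The call was lost when any of 10 of the 12 samples was left out, all but replicate 3 of WT and of Cbfb-cKO CD103+CD11b- DCs, with an FDR of at most 0.0951, and also without a count filter. Rab14 lies on chromosome 2 from 35180205 to 35201120 on the minus strand.

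Rab3d, a regulator of secretory granule exocytosis, went the other way. It was at 47.2, 40.6 and 44.5 CPM in the WT CD103-CD11b+ samples and at 17.1, 13.8 and 16.8 CPM in the Cbfb-cKO samples. The log2 fold change was -1.47 (SE 0.15, edgeR FDR = 0.00128), and no single sample decided the call. In CD103+CD11b- DCs it was at 22.2, 22.0 and 19.7 CPM in WT and at 19.3, 16.6 and 16.8 CPM in Cbfb-cKO, so the WT CD103-CD11b+ group stood above the other groups without overlap. Rab3d lies on chromosome 9 from 21907491 to 21918192 on the minus strand.

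**Figure D2:**
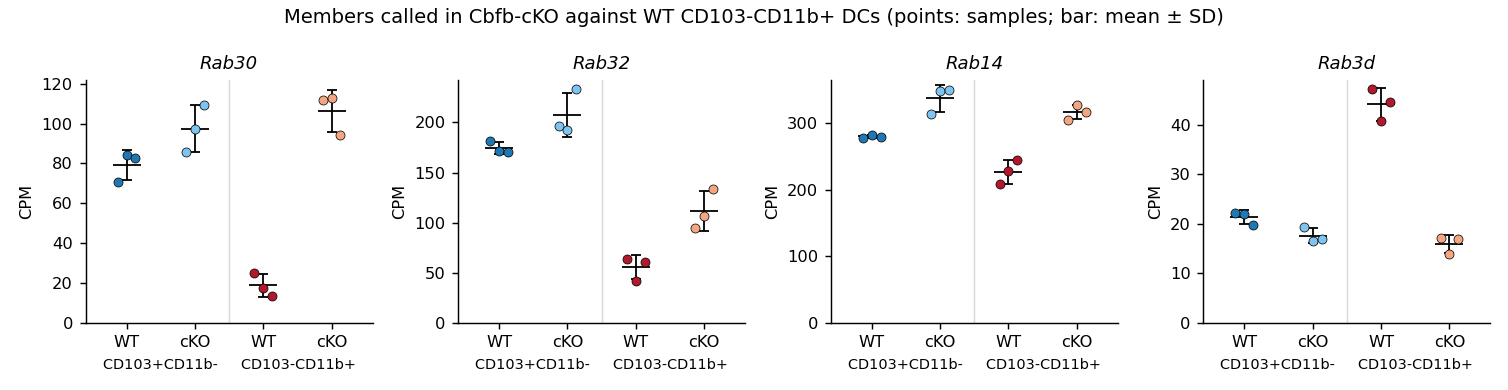
CPM of Rab30, Rab32, Rab14 and Rab3d in the 12 samples (y axes start at 0), with WT and Cbfb-cKO side by side in each subset; points are samples and bars mean ± SD over 3. WT CD103-CD11b+ DCs are the lowest group for Rab30, with a mean of 18.7 CPM, and the highest for Rab3d, with a mean of 44.1 CPM.

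Upstream sequence is shown for the called members that the RefSeq table covers, because the deleted gene encodes a subunit of a DNA-binding complex. The core letters of the Runx motif were searched as TGTGGT and TGCGGT on both strands in the 250 bases before each annotated start. Bases that an annotated exon covers were left out of what is printed, namely the 58 bases next to the start for Rab32 and 9 for Rab3d. The following stretches run 5′ to 3′ on the gene's strand and come from RefSeq on GRCm38.p6, at chr2:35201121-35201370 for Rab14, chr10:10558266-10558457 for Rab32 and chr9:21918193-21918433 for Rab3d. Capitals would mark a motif, and these 3 stretches hold none.
Rab14: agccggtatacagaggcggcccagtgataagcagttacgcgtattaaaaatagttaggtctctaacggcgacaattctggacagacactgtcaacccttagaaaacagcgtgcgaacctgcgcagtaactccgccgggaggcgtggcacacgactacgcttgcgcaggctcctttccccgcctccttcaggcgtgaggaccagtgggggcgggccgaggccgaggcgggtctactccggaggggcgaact
Rab32: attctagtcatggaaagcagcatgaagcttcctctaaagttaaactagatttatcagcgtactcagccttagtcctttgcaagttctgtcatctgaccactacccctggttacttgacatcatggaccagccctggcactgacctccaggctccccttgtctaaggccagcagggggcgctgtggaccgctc
Rab3d: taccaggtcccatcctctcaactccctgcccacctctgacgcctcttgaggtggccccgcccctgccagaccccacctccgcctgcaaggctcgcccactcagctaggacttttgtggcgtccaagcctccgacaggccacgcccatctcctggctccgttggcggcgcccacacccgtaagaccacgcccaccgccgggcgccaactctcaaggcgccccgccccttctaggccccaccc
For comparison, Rab11a, which was called between the subsets of Cbfb-cKO mice, holds a match in capitals at position -105 from its start (chr9:64737759-64738006, 2 exonic bases left out).
Rab11a: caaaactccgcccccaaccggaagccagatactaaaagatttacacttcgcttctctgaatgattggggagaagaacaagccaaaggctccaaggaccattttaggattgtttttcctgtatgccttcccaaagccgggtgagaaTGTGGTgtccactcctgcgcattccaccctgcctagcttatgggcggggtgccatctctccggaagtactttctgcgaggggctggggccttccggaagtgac
Of the 54 members, 43 had a window in the table, and 11 of these held either motif. Counted by window, 11 of the 55 windows of members held a match, beside 18.6% of all 32851 windows. A match of these letters is a description of the sequence and not a binding site, and nothing follows from its absence in so short a window.

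The members just outside the limits in CD103-CD11b+ DCs were Rab38 and Rab25. Rab38, the paralog of Rab32 in melanosome and granule formation, read 3.52, 2.33 and 2.04 CPM in WT and 7.86, 6.42 and 8.67 CPM in Cbfb-cKO samples (log2 fold change 1.5, SE 0.33, edgeR FDR = 0.0502). Rab25, a Rab11 relative best known from epithelial recycling endosomes, read 5.29, 3.33 and 4.07 CPM in WT and 0.898, 0.714 and 1.53 CPM in Cbfb-cKO samples (log2 fold change -2.07, SE 0.48, edgeR FDR = 0.0542). Groups did not overlap for either gene, and neither was called by edgeR in the main fit. DESeq2 called both (DESeq2 FDR = 0.0101 for Rab38 and 0.0419 for Rab25). Of the alternative settings, 6 of 19 called Rab38 and 3 of 18 called Rab25. The counts behind Rab25 were 27, 10 and 14 in WT and 4, 3 and 3 in Cbfb-cKO samples.

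The study gated intestinal DCs as CD45+CD64-CD11c+MHC-II+ cells, a gate that leaves out CD64+ macrophages and cells without CD45 such as epithelium and stroma. Marker lists of other cell types were read in the same libraries. Of 7 B cell genes, Ms4a1 and Cd22 were called higher in Cbfb-cKO than in WT CD103-CD11b+ DCs, and the summed level of the list ran from 133 to 312 CPM in WT and from 153 to 605 CPM in Cbfb-cKO samples. Ms4a1 lay between 2.04 and 7.44 CPM in WT and between 43.3 and 91.1 CPM in Cbfb-cKO samples, and Cd22 between 22.4 and 34.3 CPM and between 79.0 and 136 CPM. Of 7 macrophage genes Adgre1 was called higher, and the list's sum ran from 139.6 to 314 CPM in WT and from 281 to 440.2 CPM in Cbfb-cKO samples. The mean of Adgre1 went from 51.9 to 197 CPM. The other macrophage genes were not called and did not rise with it. Their log2 fold changes were -0.21 for Fcgr1, -0.69 for Mertk, -0.10 for C1qa, 0.0016 for C1qb, 0.07 for C1qc and -1.33 for Cd163. Of 5 neutrophil genes Csf3r was called higher, and the sum ran from 46.2 to 51.5 CPM in WT and from 102 to 152 CPM in Cbfb-cKO samples, without overlap. Csf3r made up most of that sum, with means of 39.3 and 107 CPM. S100a8, S100a9 and Cxcr2 gave log2 fold changes of -0.11, 0.08 and 1.32 and were not called, and Ly6g was not tested. Of the 7 cDC1 genes only Itgae, which encodes CD103 and was used in the sort, was called (lower), and the list's sum ran from 444 to 685 CPM in WT and from 380.2 to 758 CPM in Cbfb-cKO samples. The part of such cells in the changes of Rab30, Rab32, Rab14 and Rab3d was not tested.

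Epithelial genes were read beside Rab25. In WT CD103-CD11b+ samples Krt8 was at 19.97, 8.0 and 16.3 CPM, and in Cbfb-cKO samples at 0.898, 0.952 and 2.55 CPM. The sum over 10 epithelial genes ran from 227 to 402 CPM in the former and from 62.6 to 113 CPM in the latter, with none of the 10 called. Krt18 was at 38.0, 12.3 and 42.2 CPM in WT and at 0.898, 0.238 and 7.65 CPM in Cbfb-cKO samples, and Cdh1 at 224, 116 and 124 CPM and at 33.0, 22.6 and 46.9 CPM, so WT was the higher group for each of these genes, without overlap. Cdh1 and Epcam held most of the sum. In CD103+CD11b- samples their means were 150 and 42.9 CPM in WT and 25.5 and 11.4 CPM in Cbfb-cKO. Krt8 and Krt18 had means of 1.31 and 1.74 CPM in those WT samples. In the CD103-CD11b+ comparison Krt20, Fabp1 and Fabp2 were not clearly lower, with log2 fold changes of 0.81, 0.88 and -0.03. The part of epithelial cells in the level of Rab25 was not tested.

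In CD103+CD11b- DCs no member was called between Cbfb-cKO and WT by edgeR's quasi-likelihood test (0 of 54, where 1.02% of all tested genes were, 0.224% higher and 0.797% lower). At an unadjusted p under 0.05, 5 members were higher and 3 lower, beside 800 and 1366 of all 20580 genes, and DESeq2 called 0 members as well. The median log2 fold change was 0.19 over the 52 members with a count in every group and -0.02 over all tested genes. The smallest p was that of Rab6b, a Golgi paralog of Rab6a, with 35.6, 34.5 and 15.8 CPM in WT and 16.4, 10.01 and 5.08 CPM in Cbfb-cKO samples. WT replicate 3 overlapped with the Cbfb-cKO samples, and the log2 fold change was -1.41 (SE 0.47, edgeR FDR = 0.243). Rab43 followed with 0.44 (SE 0.15, edgeR FDR = 0.263) and Rab14 with 0.27 (SE 0.09, edgeR FDR = 0.266).

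**Figure D3:**
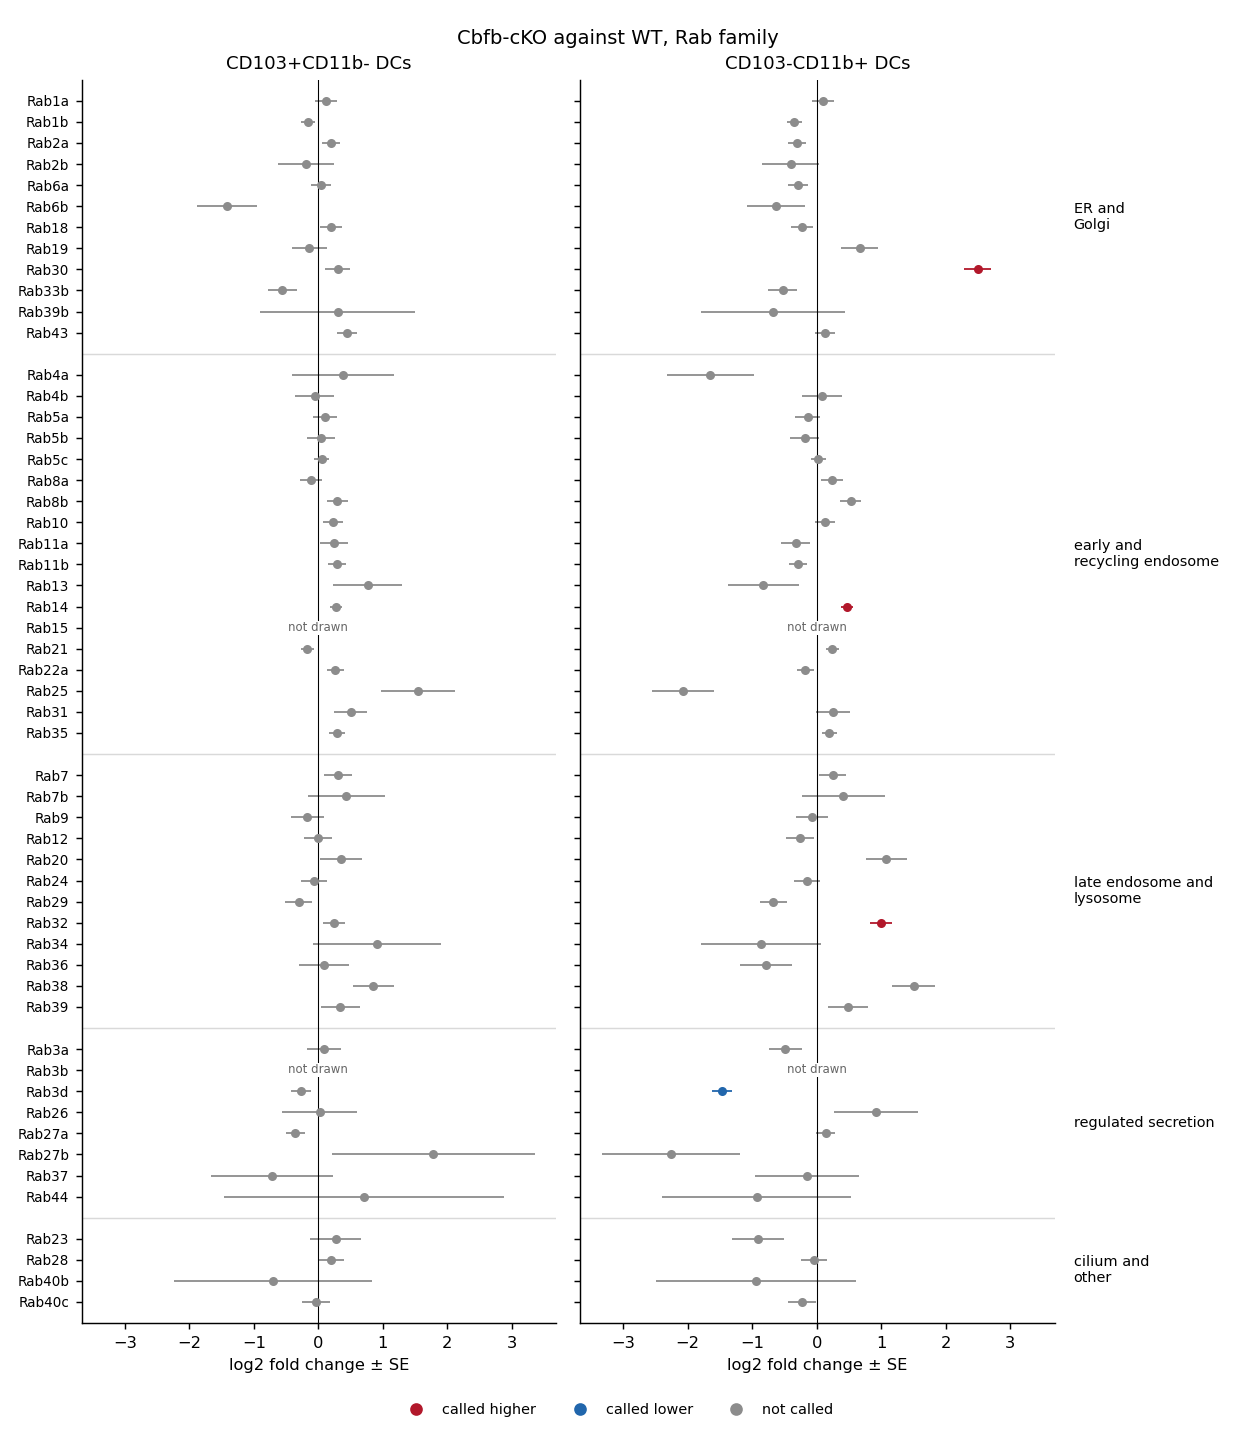
Log2 fold change of Cbfb-cKO against WT with its SE for the Rab members in CD103+CD11b- and CD103-CD11b+ DCs, grouped by site of action; Rab15 and Rab3b are not drawn because a group had 0 counts. No member is called in the left panel, and Rab30, Rab14 and Rab32 (higher) and Rab3d (lower) are called in the right panel.

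Whether the effect of Cbfb-cKO on a member differed between the subsets was tested in the same model. Of 54 members 2 were called for this difference, Rab30 upward and Rab3d downward, where 0.651% of all tested genes were (0.554% upward and 0.0972% downward). The difference was 2.20 on the log2 scale for Rab30 (SE 0.28, edgeR FDR = 0.00986), from 0.30 in CD103+CD11b- to 2.50 in CD103-CD11b+ DCs, and it was called whichever sample was left out. For Rab3d it was -1.20 (SE 0.22, edgeR FDR = 0.0398), from -0.27 to -1.47, and leaving out any single sample ended the call, with an FDR between 0.0588 and 0.12. Rab32 gave 0.75 (SE 0.24, edgeR FDR = 0.254) and Rab14 0.21 (SE 0.13, edgeR FDR = 0.641), so their effects were not shown to differ between the subsets. Rab25 had the largest difference among the members with counts in every group apart from Rab27b, at -3.62 (SE 0.74, edgeR FDR = 0.0541). Its CD103+CD11b- samples were at 0.342, 0.458 and 0.323 CPM in WT and 0.888, 1.71 and 0.782 CPM in Cbfb-cKO, close to the level of 3 counts.

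How the family differs between the subsets was asked in each genotype. These comparisons use the same samples as those above, among them the WT CD103-CD11b+ group of the genotype comparison. In WT mice 15 of 54 members were called, where 18.8% of all tested genes were, and 12 of 54 in Cbfb-cKO mice, where 16.1% were. In CD103-CD11b+ relative to CD103+CD11b- DCs, 9 members were lower and 6 higher in WT, beside 7% and 11.8% of all genes, and 10 lower and 2 higher in Cbfb-cKO, beside 6.81% and 9.26%. Rab7b, Rab39, Rab43, Rab32, Rab33b, Rab8b and Rab10 were called lower in both genotypes. Rab30 and Rab19 were called lower in WT, and Rab11a, Rab1b and Rab2a in Cbfb-cKO. All the called members of late endosomes and lysosomes and of ER and Golgi were lower in CD103-CD11b+ DCs, 3 of 12 and 4 of 12 in each genotype. The median of the 12 ER and Golgi members was -0.07 in WT and -0.24 in Cbfb-cKO, beside 0.07 and 0.11 over all tested genes, and at an unadjusted p under 0.05 of edgeR's test 2 of the 12 late endosomal and lysosomal members were higher in WT and 1 in Cbfb-cKO. The called members of regulated secretion were higher there, 4 of 8 in WT and 2 of 8 in Cbfb-cKO, but Rab3b, Rab27b and Rab37 among them had fewer than 5 counts in at least 1 library. In the fit limited to genes that reached 5 counts in all 12 libraries, 2 of 41 members were called higher and 9 lower in WT, beside 12.3% and 9.63% of those genes (21.9% in all). In Cbfb-cKO 2 were called higher and 11 lower in that fit, beside 13.1% and 10.9% (24.1% in all). In the same comparisons 6 of 7 macrophage genes were called higher in WT and 5 of 7 in Cbfb-cKO, with list sums from 14.6 to 32.8 CPM in CD103+CD11b- and from 139.6 to 314 CPM in CD103-CD11b+ samples of WT mice. Of the 7 B cell genes 2 and 4 were called higher, and of the 5 neutrophil genes 2 and 2. The sum over 5 stromal genes ran from 16.5 to 388 CPM in CD103+CD11b- and from 353 to 862 CPM in CD103-CD11b+ samples of WT mice, with none called there and Pdgfra called higher in Cbfb-cKO. The part of such cells in the subset differences was not tested.

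Among the members lower in CD103-CD11b+ DCs the largest change was that of Rab7b, which acts between late endosomes and the Golgi and is a separate gene from Rab7. It was at 284, 289 and 289 CPM in WT and 358, 352 and 451 CPM in Cbfb-cKO CD103+CD11b- DCs. In CD103-CD11b+ DCs it read 14.5, 23.7 and 66.3 CPM in WT and 35.2, 12.4 and 95.4 CPM in Cbfb-cKO, where replicate 3 was the highest in both. The log2 fold change was -3.05 in WT (SE 0.66, edgeR FDR = 0.0114) and -3.07 in Cbfb-cKO (SE 0.66, edgeR FDR = 0.00893). When 1 sample was left out, these values moved between -3.98 and -2.72 and between -4.02 and -2.63. Xcr1 in the same CD103-CD11b+ libraries was at 18.2, 4.0 and 30.2 CPM in WT and at 42.4, 16.4 and 73.9 CPM in Cbfb-cKO, and the sum of the 7 cDC1 genes never exceeded 758 CPM there against at least 2861 CPM in any CD103+CD11b- library. All 7 of those genes were called lower in CD103-CD11b+ DCs in both genotypes. The part of cDC1 in the level of Rab7b in the CD103-CD11b+ libraries was not tested.

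Rab39 and Rab43 are both tied by background knowledge to antigen handling in DCs, the former on phagosomes and late endosomes and the latter at the Golgi. Rab39 was at 65.3, 66.4 and 62.9 CPM in WT and 81.2, 83.7 and 81.7 CPM in Cbfb-cKO CD103+CD11b- DCs, against 28.8, 11.3 and 10.8 CPM in WT and 27.8, 24.3 and 19.9 CPM in Cbfb-cKO CD103-CD11b+ DCs. The subsets did not overlap, with log2 fold changes of -1.91 in WT (SE 0.31, edgeR FDR = 0.00305) and -1.77 in Cbfb-cKO (SE 0.31, edgeR FDR = 0.00291). With 1 sample left out, these values moved between -2.60 and -1.71 and between -1.93 and -1.66. Rab43 was at 89.6, 104 and 92.3 CPM in WT and 122, 133 and 133 CPM in Cbfb-cKO CD103+CD11b- DCs. Its CD103-CD11b+ samples read 56.0, 45.3 and 44.5 CPM in WT and 49.2, 45.4 and 66.3 CPM in Cbfb-cKO, again without overlap between subsets. The log2 fold change was -0.97 in WT (SE 0.15, edgeR FDR = 0.0025) and -1.28 in Cbfb-cKO (SE 0.15, edgeR FDR = 0.000261). Another annotated gene, Gm45140, covers 75.4% of the exonic bases of Rab43, and the counting did not use strand, so the level of Rab43 is uncertain.

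Among the endosomal members, Rab8b was at 382, 378 and 346 CPM in WT CD103+CD11b- and at 200.3, 214 and 241 CPM in WT CD103-CD11b+ DCs (log2 fold change -0.76, SE 0.16, edgeR FDR = 0.0112). In Cbfb-cKO it was at 401, 444 and 511 CPM and at 268, 273 and 402 CPM, where CD103-CD11b+ replicate 3 reached the lowest CD103+CD11b- sample (log2 fold change -0.53, SE 0.16, edgeR FDR = 0.0475). Its paralog Rab8a had group means of 128, 118, 116 and 137 CPM and was called in no comparison. Rab10 was at 261, 232 and 232 CPM in WT and 248, 265 and 339 CPM in Cbfb-cKO CD103+CD11b- DCs, against 156, 159.9 and 187 CPM in WT and 176, 156 and 221 CPM in Cbfb-cKO CD103-CD11b+ DCs, so the subsets did not overlap. It gave -0.53 in WT (SE 0.15, edgeR FDR = 0.0372) and -0.62 in Cbfb-cKO (SE 0.15, edgeR FDR = 0.0188). Rab33b, which acts at the Golgi and in autophagosome formation, gave -1.02 (SE 0.22, edgeR FDR = 0.0124) and -0.99 (SE 0.23, edgeR FDR = 0.0131). Its WT CD103+CD11b- samples were at 124, 101 and 70.7 CPM and its WT CD103-CD11b+ samples at 57.7, 49.0 and 38.7 CPM, and the Cbfb-cKO samples read 65.0, 71.5 and 63.7 CPM and 38.8, 35.9 and 25.5 CPM. Gm38160 covered 18.7% of its exonic bases.

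Rab30 and Rab32, described above by genotype, were also among the strongest subset differences in WT. The log2 fold change was -2.07 for Rab30 (SE 0.21, edgeR FDR = 0.000164) and -1.65 for Rab32 (SE 0.18, edgeR FDR = 0.000251). In Cbfb-cKO, Rab32 remained lower in CD103-CD11b+ DCs at -0.90 (SE 0.17, edgeR FDR = 0.0047), and Rab30 gave 0.13, not called. Rab19, a Golgi member, was at 16.4, 29.1 and 24.1 CPM in WT CD103+CD11b- and 9.2, 10.3 and 4.94 CPM in WT CD103-CD11b+ DCs (log2 fold change -1.51, SE 0.28, edgeR FDR = 0.00614). In Cbfb-cKO mice Rab19 read 20.9, 20.7 and 21.5 CPM in CD103+CD11b- and 12.1, 14.0 and 12.7 CPM in CD103-CD11b+ DCs, without overlap but not called. Rab14 gave -0.30 in WT (SE 0.09, edgeR FDR = 0.0419), under the fold limit.

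Called higher in WT CD103-CD11b+ DCs were 6 members. Rab3d, whose values are given above, rose by 1.05 on the log2 scale (SE 0.15, edgeR FDR = 0.00149) and Rab3a, the Rab3 form best known from synaptic vesicles, by 0.97 (SE 0.26, edgeR FDR = 0.0267). Rab3a read 7.86, 5.95 and 6.95 CPM in WT CD103+CD11b- and 11.5, 16 and 13.1 CPM in WT CD103-CD11b+ DCs, and in Cbfb-cKO mice 9.32, 6.35 and 6.26 CPM and 9.88, 10.7 and 8.16 CPM. Rab4a, which acts in fast recycling, was at 1.03, 0.686 and 1.29 CPM in the former and 7.83, 15.3 and 4.94 CPM in the latter (log2 fold change 3.16, SE 0.74, edgeR FDR = 0.0152). Its Cbfb-cKO samples were at 0.222, 2.93 and 0.782 CPM in CD103+CD11b- and 2.02, 3.81 and 3.06 CPM in CD103-CD11b+ DCs, where the subsets overlapped. Rab25 gave 3.41 (SE 0.53, edgeR FDR = 0.00192). Each of these 4 members was higher in every CD103-CD11b+ sample of WT mice than in any CD103+CD11b- sample.

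Rab27b, which docks secretory granules, had 3 counts in the WT CD103+CD11b- samples together and 120 in the WT CD103-CD11b+ samples. Their ratio, after division by the summed TMM-scaled library sizes, was 46.7, with an exact 95% interval from 15.6 to 230 that covers counting error only. The 83, 11 and 26 counts of the CD103-CD11b+ samples were uneven, so the ratio rests largely on replicate 1. In edgeR's fit the log2 fold change was 5.28, and it moved between 4.52 and 8.08 when 1 sample was left out. In Cbfb-cKO mice Rab27b had 2, 6 and 1 counts in the CD103+CD11b- and 1, 2 and 12 in the CD103-CD11b+ samples. Rab3b, also called, had 3, 7 and 2 counts in those samples and 0 in every CD103+CD11b- sample, too few for a fold change, with 1 count in all 6 Cbfb-cKO samples together. Vil1, Krt8 and Krt18 were called higher in the same comparison, 3 of 10 epithelial genes, with the sum of the list between 120 and 278 CPM in CD103+CD11b- and between 227 and 402 CPM in CD103-CD11b+ samples. Their part in the levels of Rab25 and Rab27b was not tested.

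In Cbfb-cKO mice the members higher in CD103-CD11b+ DCs were Rab27a, the granule-docking paralog of Rab27b, and Rab37, known from mast cell granules. Rab27a was at 29.5, 34.7 and 30.9 CPM in CD103+CD11b- and 50.3, 50.7 and 45.9 CPM in CD103-CD11b+ samples (log2 fold change 0.63, SE 0.14, edgeR FDR = 0.013). Its WT samples were at 44.5, 38.90 and 38.8 CPM and at 50.9, 45.6 and 36.9 CPM, with overlap. Rab37 was at 1.11, 4.15 and 0.391 CPM in CD103+CD11b- and at 25.6, 19.99 and 4.59 CPM in CD103-CD11b+ samples (log2 fold change 3.09, SE 0.93, edgeR FDR = 0.0432). Its WT samples were at 2.74, 2.75 and 4.20 CPM in CD103+CD11b- and at 11.5, 41.0 and 4.65 CPM in CD103-CD11b+ DCs, so single libraries differed widely within a group. Of 5 mast cell genes, Kit lay between 221 and 418 CPM over the 12 libraries, Cpa3 had counts in 3 of them, Mcpt1 and Mcpt2 in 1 each and Fcer1a in none. The sum over 7 T cell genes, none of them called, was at 4.31, 105 and 34.0 CPM in the WT CD103-CD11b+ libraries and at 117, 45.4 and 12.2 CPM in the Cbfb-cKO CD103-CD11b+ libraries. The sum over 7 B cell genes was at 133, 312 and 181 CPM in the former and at 605, 334 and 153 CPM in the latter. The part of mast, T and B cells in the level of Rab37 was not tested.

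Rab11a, which controls slow recycling, fell by 1.05 on the log2 scale in CD103-CD11b+ relative to CD103+CD11b- DCs of Cbfb-cKO mice (SE 0.22, edgeR FDR = 0.00787). It was at 135, 136 and 176 CPM in the CD103+CD11b- and at 66.7, 73.3 and 76.0 CPM in the CD103-CD11b+ samples, against 122, 130.4 and 125 CPM and 55.8, 112 and 104 CPM in WT. Rab1b and Rab2a, both acting between ER and Golgi, fell by 0.43 (SE 0.11, edgeR FDR = 0.0218) and by 0.48 (SE 0.14, edgeR FDR = 0.0367). Same-numbered Cbfb-cKO samples of the subsets varied together only weakly, with correlations of 0.112 to 0.354, which do not establish a shared mouse. With that number entered as a block in each genotype 15 members were called there, with Rab20 (higher) and Rab6a and Rab11b (lower) in addition.

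Not every subset call held when single samples were left out. In WT, Rab25, Rab3d, Rab32, Rab19, Rab43, Rab30, Rab8b, Rab7b and Rab39 were called without any 1 of the 12 samples. Rab33b was lost without WT CD103+CD11b- replicate 1, Rab27b without WT CD103+CD11b- replicate 1 or 2, and Rab4a without either of these or without WT CD103-CD11b+ replicate 2. Rab10 and Rab3a were lost without any of 5 samples and Rab3b without any of 11. In Cbfb-cKO, Rab7b, Rab39, Rab43, Rab32, Rab11a and Rab33b were called throughout. Rab10, Rab1b and Rab27a were lost without any of 3 samples, Rab37 and Rab2a without any of 6, and Rab8b without any of 7.

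**Figure D4:**
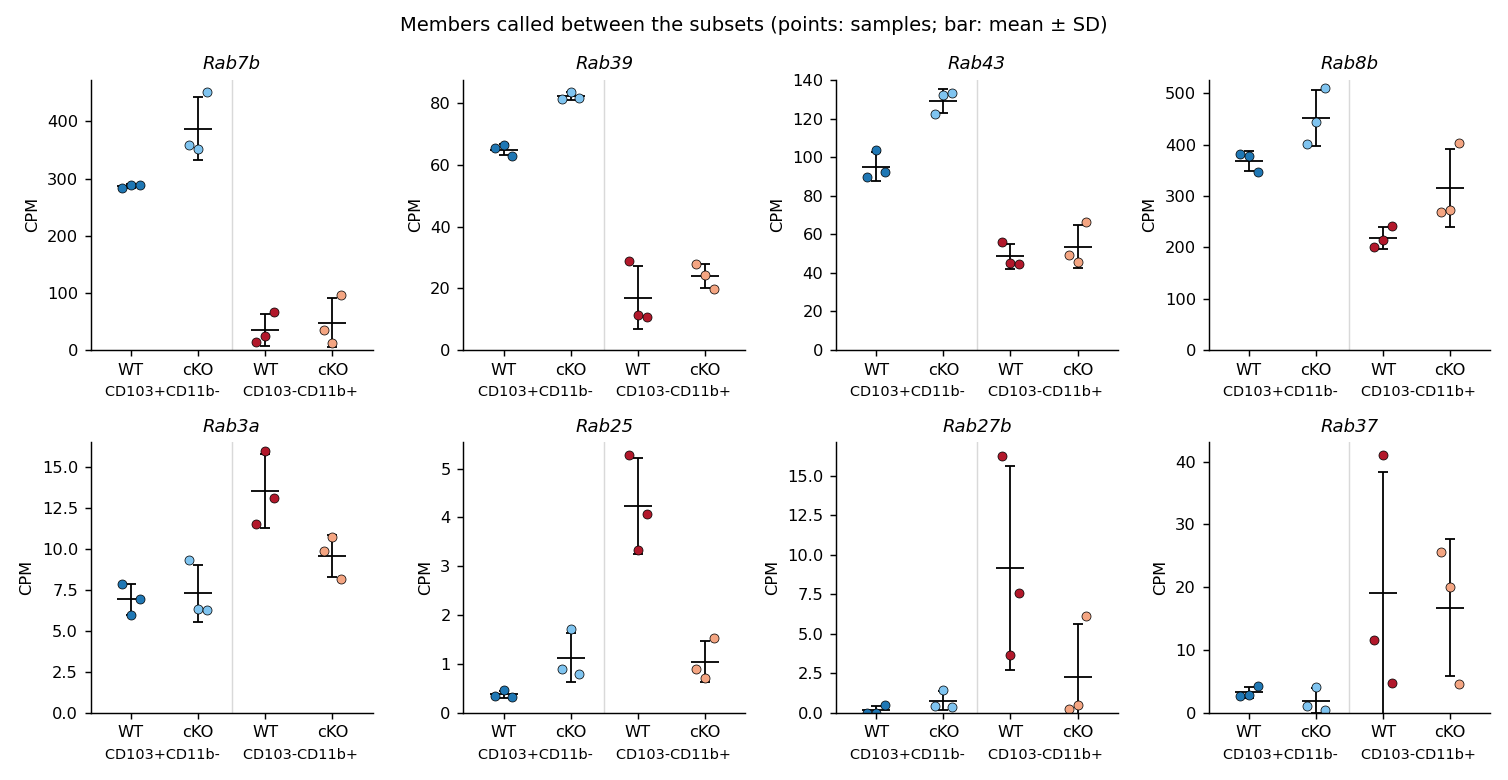
CPM of 8 members called between the subsets in at least 1 genotype, in the 12 samples (y axes start at 0); points are samples and bars mean ± SD over 3. Rab7b, Rab39, Rab43 and Rab8b have higher means in CD103+CD11b- DCs, and Rab3a, Rab25, Rab27b and Rab37 have higher means in WT CD103-CD11b+ DCs, with wide spread for Rab27b and Rab37.

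**Figure D5:**
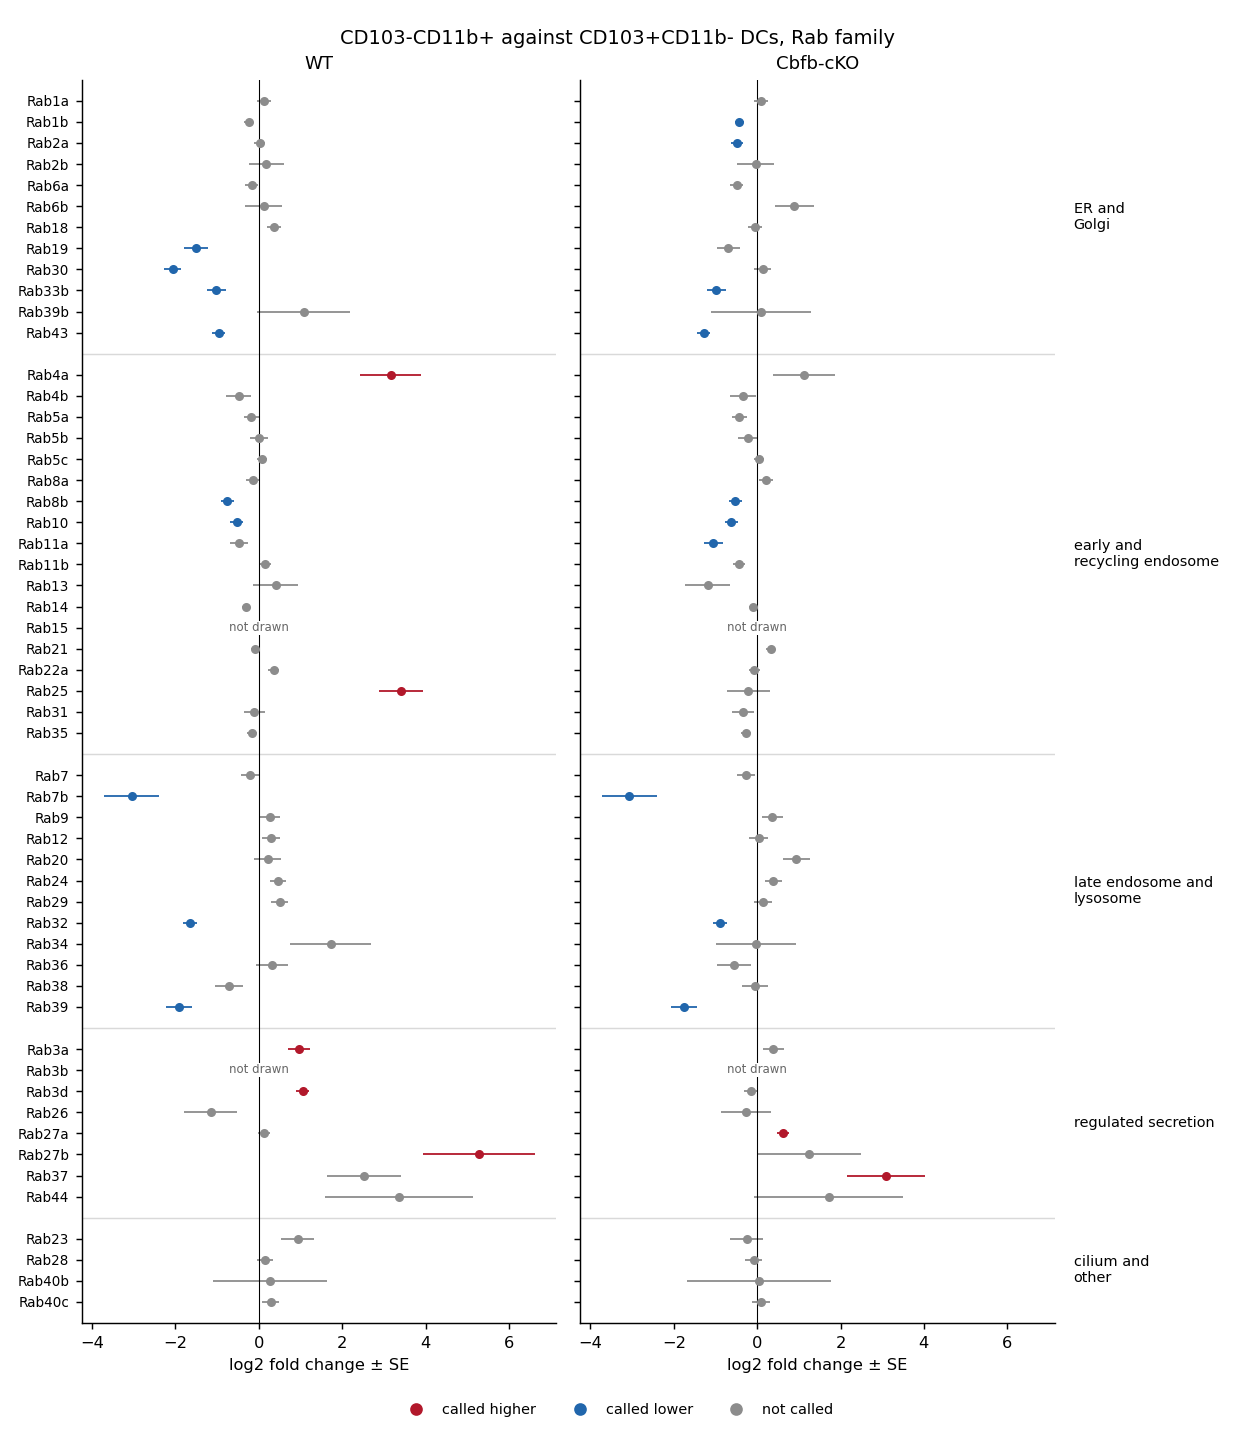
Log2 fold change of CD103-CD11b+ against CD103+CD11b- DCs with its SE for the Rab members in WT and Cbfb-cKO mice, grouped by site of action; Rab15 and Rab3b are not drawn because a group had 0 counts. The called members at ER and Golgi and at late endosomes and lysosomes all lie left of 0, and those drawn for regulated secretion lie right of 0, of which Rab27b and Rab37 had fewer than 5 counts in at least 1 library.

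The genes that run the Rab cycle were read from a list of 132 prenylation enzymes, GDP dissociation inhibitors, GEFs, GAPs and effectors, of which 128 were tested. In Cbfb-cKO against WT CD103-CD11b+ DCs 4 of 128 were called, 2 higher and 2 lower, where 1.61% of all tested genes were, 1.11% higher and 0.5% lower. Rab3il1, a GEF that acts on Rab3 and Rab8 proteins, was at 53.6, 46.6 and 31.7 CPM in WT and 15.5, 17.6 and 13.3 CPM in Cbfb-cKO samples (log2 fold change -1.50, SE 0.25, edgeR FDR = 0.0147). The groups did not overlap, and the CD103+CD11b- samples, at 8.6 to 14.6 CPM, lay near the Cbfb-cKO level. Usp6nl, a GAP of Rab5, rose by 0.60 (SE 0.11, edgeR FDR = 0.0245) and Dennd1b, a GEF of Rab35, by 0.60 (SE 0.12, edgeR FDR = 0.0403). Bicd2, a dynein adaptor and effector of Rab6, fell by 0.55 (SE 0.12, edgeR FDR = 0.0471). Leaving out a single sample ended the call of Rab3il1 for 3 of the 12 samples, of Usp6nl for 4, of Dennd1b for 9 and of Bicd2 for all 12, with an FDR of at most 0.132. The marker genes called higher in this comparison, Ms4a1, Cd22, Adgre1 and Csf3r, are given above, and the part of such cells in the changes of these 4 genes was not tested.

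In Cbfb-cKO against WT CD103+CD11b- DCs 3 of 128 were called, all lower, where 1.02% of all tested genes were and 0.797% lower. For the difference between subsets none of the 128 was called by edgeR's quasi-likelihood test or by DESeq2, where 0.651% of all tested genes were by the former. The edgeR fit with the replicate number as a block called 3 of them. At an unadjusted p under 0.05 of edgeR, 15 of the 128 lay upward and 5 downward, beside 1309 and 975 of all 20580 genes. Tbc1d16, a GAP of Rab4, was at 50.6, 37.1 and 33.6 CPM in WT and 7.77, 10.01 and 5.08 CPM in Cbfb-cKO samples (log2 fold change -2.37, SE 0.37, edgeR FDR = 0.014). Dennd3, a GEF of Rab12, was at 173, 127 and 116 CPM in WT and 68.3, 62.0 and 61.8 CPM in Cbfb-cKO samples (log2 fold change -1.11, SE 0.19, edgeR FDR = 0.0223). Rilpl1, a relative of the Rab7 effector Rilp that binds Rab8 and Rab10, gave -1.86 (SE 0.37, edgeR FDR = 0.042). Leaving out a single sample ended the call of Tbc1d16 for 4 of the 12 samples, of Dennd3 for 5 and of Rilpl1 for 9, with an FDR of at most 0.191. All 3 genes were higher in CD103-CD11b+ than in CD103+CD11b- DCs of Cbfb-cKO mice, with log2 fold changes of 2.37, 1.89 and 2.0 in that order. Sirpa, Irf4 and Cd209a, 3 of 7 cDC2 genes, were called lower in the same Cbfb-cKO against WT comparison, and the sum of the list ran from 370.1 to 630 CPM in WT and from 84.9 to 138 CPM in Cbfb-cKO samples. Of the other cDC2 genes, Itgam gave a log2 fold change of 0.92, Mgl2 -0.16, Clec10a -1.61 and Cd101 -2.48, none of them called. Of 10 epithelial genes Epcam was called lower. That list's sum ran from 120 to 278 CPM in WT and from 25.4 to 139 CPM in Cbfb-cKO samples. Krt8, Krt19, Krt20, Vil1, Fabp1, Fabp2 and Lgals4 went the other way, none of them called. The part of cDC2 and epithelial cells in the change of Tbc1d16, Dennd3 and Rilpl1 was not tested.

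Between the subsets 36 of 128 genes of the Rab cycle were called in WT, 17 higher and 19 lower in CD103-CD11b+ DCs, and 32 in Cbfb-cKO, 19 higher and 13 lower. These shares, 28.1% and 25%, stand beside the 18.8% and 16.1% of all tested genes. In the fit limited to genes that reached 5 counts in all 12 libraries, 21.9% and 24.1% of genes were called. The 128 genes were not held to that limit. Leaving out 1 sample at a time moved their counts of calls to between 20 and 44 in WT and between 23 and 35 in Cbfb-cKO. Rin2, a GEF of Rab5, had the smallest p of those higher in CD103-CD11b+ DCs in both genotypes. Its samples were at 49.9, 47.8 and 43.8 CPM against 199, 191 and 157 CPM in WT (log2 fold change 1.95, SE 0.16, edgeR FDR = 4.87e-05), and the log2 fold change in Cbfb-cKO was 2.19 (SE 0.16, edgeR FDR = 1.16e-05). Hps4, a subunit of the GEF of Rab32 and Rab38, had the smallest p of those lower. It was at 125, 125 and 119 CPM in CD103+CD11b- and 43.7, 43.3 and 32.9 CPM in CD103-CD11b+ samples of WT mice (log2 fold change -1.62, SE 0.12, edgeR FDR = 2.24e-05), and at -1.29 in Cbfb-cKO (SE 0.12, edgeR FDR = 3.88e-05). Rab11fip4, an effector of Rab11, gave -1.44 and -1.61 on the log2 scale in WT and Cbfb-cKO, and Dennd2d, a GEF of Rab9, gave -1.03 and -1.31. Among the others of smallest p, Tbc1d14 gave -0.73 and -0.72 and Appl2 1.02 and 0.61 in WT and Cbfb-cKO.

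Mlph, which links Rab27a to myosin on melanosomes, was at 0.0, 0.229 and 0.162 CPM in WT CD103+CD11b- and 29.2, 13 and 16 CPM in WT CD103-CD11b+ samples, and at 3.59, 8.33 and 4.59 CPM in Cbfb-cKO CD103-CD11b+ samples. The epithelial genes Vil1, Krt8 and Krt18, called higher in the same WT comparison, were likewise lower in Cbfb-cKO than in WT CD103-CD11b+ samples by their means, and the part of epithelial and other cells in these pathway differences was not tested. Rab3il1 gave 1.83 in WT (SE 0.25, edgeR FDR = 0.00107).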

How the data were processed

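RNA of sorted intestinal DCs was sequenced in 12 samples, 3 in each of 4 groups, and samples were grouped by genotype and subset as their titles give them. Per the study's methods, each library came from a small number of sorted cells. A single-cell RNA-seq protocol adapted to bulk input was used, with PCR amplification. Few input cells limit the precision of genes with few counts. The authors deposited raw read counts per gene, 1 file per sample, without normalization. Per the study's methods and the submitters' processing notes, reads were trimmed with Trim Galore, mapped with STAR 2.7 to mm10, cleared of low mapping quality and duplicates, and counted without strand by HTSeq on the GRCm38 annotation. Counting intervals leave out the error that amplification adds. The counter also wrote 5 summary lines, which entered neither library sizes nor tests. Of all reads it tallied, 59.7% to 66.1% fell on no feature and 1.21% to 1.52% were ambiguous. Symbols and positions came from GENCODE M21, which matched 99.8% of the gene IDs.

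The 20580 genes that reached 5 counts in any of the 12 samples were scaled by TMM and tested in R 4.3.3 by the quasi-likelihood F-test in edgeR 4.0.16, which uses limma 3.58.1, with all 4 groups in the same model. P-values were adjusted by Benjamini-Hochberg over all tested genes, and a gene was called when its FDR was under 0.05 and its fold change exceeded 1.3. CPM are from TMM-scaled library sizes. DESeq2 1.42.0 and other filters, scalings, limits, blocks and left-out samples were tried as alternatives. The scripts were tested on simulated counts. Python 3.11.15 with pandas 2.3.3 wrote the tables, and matplotlib 3.10.9 drew the plots. Upstream sequences were taken from RefSeq on GRCm38.p6.

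Members and gene lists were chosen with earlier results of these data known. Values in every sample are given for the members called in a Cbfb-cKO comparison or in the difference of effects, for the 8 called members with the smallest p per direction and subset comparison, and for the 5 of highest level per length, and pathway genes are named when called in a Cbfb-cKO comparison or, up to 5 per direction, among those of smallest p. Rab38, Rab20, Rab6b, Rab8a, Rab6a, Rab11b and Rab5c were named outside this rule, after their values had been seen.

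Replicate pairs of a group differed by more than sampling noise, with a chi-square per degree of freedom of at least 2.46. Each group is numbered 1 to 3. The pairing was checked by the correlation of deviations from the group means. Same-numbered samples of the subsets in Cbfb-cKO correlated at 0.112, 0.321 and 0.354, over 0.1 in every pair. Any pairing of these rests on the data and not on the labels. Samples of different genotypes, which cannot share a mouse, reached 0.422 (replicate 2 of WT and of Cbfb-cKO CD103-CD11b+ DCs). Such correlations therefore do not establish a shared mouse. The other comparisons had at least 1 pair under 0.1.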

Additional observations from a re-analysis of the deposited data

Results flagged for a closer look

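Rab30 and Rab3d stand out because the effect of Cbfb-cKO on them differed between the subsets by a test of the difference itself (edgeR's quasi-likelihood test of the interaction). The difference of the log2 fold changes, CD103-CD11b+ minus CD103+CD11b- DCs, was 2.20 for Rab30 (edgeR FDR = 0.00986) and -1.20 for Rab3d (edgeR FDR = 0.0398). Rab30 kept the call without any 1 of the 12 samples. Rab3d lost it without any 1 of them.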

How the results depend on the processing

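The alternatives were run for the counts of calls and for the log2 fold changes of the called members, of the pathway genes called in a Cbfb-cKO comparison, and of Rab38 and Rab25 in that of CD103-CD11b+ DCs and Rab25 in the difference, and none of these changed direction. With an FDR under 0.01, the members called were 2 for Cbfb-cKO against WT in CD103-CD11b+ DCs, 1 for the difference between subsets, and 7 and 5 between the subsets in WT and Cbfb-cKO, and the pathway genes 0 and 0 for Cbfb-cKO against WT in CD103+CD11b- and CD103-CD11b+ DCs and 16 and 17 between the subsets. DESeq2 called 7 members for Cbfb-cKO in CD103-CD11b+ DCs (Rab38, Rab20 and Rab25 in addition) and 3 for the difference, and 7 and 17 pathway genes for Cbfb-cKO in the 2 subsets. With only the 6 samples compared, 1 member and 0 pathway genes were called for Cbfb-cKO in CD103-CD11b+ DCs, and 23 pathway genes between the subsets in WT. Without a count filter 1 member was called for the difference (Rab30), and with 5 or more counts in every sample 7 pathway genes for Cbfb-cKO in CD103-CD11b+ DCs.

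In a fit of all samples that adds the replicate number as a block, members called were 0 for Cbfb-cKO in CD103+CD11b- and 7 in CD103-CD11b+ DCs, 2 for the difference, and 15 and 15 between the subsets, and pathway genes 5, 14 and 3 for the same 3 Cbfb-cKO comparisons. The block within genotype called 15 and 15 members between the subsets.

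Leaving out 1 sample at a time gave 0 members for Cbfb-cKO in CD103+CD11b- DCs, 2 to 5 in CD103-CD11b+ DCs, 1 for the difference, 9 to 16 between the subsets in WT and 6 to 15 in Cbfb-cKO, and 0 to 3, 0 to 7, 0, 20 to 44 and 23 to 35 pathway genes in the same order. Depth limits the precision of members with few counts, such as Rab25, Rab27b and Rab3b.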
